A study of Rattus norvegicus with 12 samples.

Results

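Desulfobacterota are a phylum of mostly anaerobic bacteria that in the gut use sulfate or sulfite as an electron acceptor and release hydrogen sulfide. In rat faeces they were followed here through every amplicon sequence variant (ASV, an exact 16S rRNA gene sequence inferred from the reads) whose deposited lineage names this phylum. They comprised 63 of 7238 bacterial and other prokaryotic ASVs and 20586 of 4635320 reads, or 0.444% of all reads. The members were taken by their lineage, without a filter on their counts. The phylum itself was chosen with earlier results of these data known.

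The study sequenced part of the 16S rRNA gene from faecal DNA of rats in 4 groups of 3 libraries. SAH+Tet+ABX carried the subarachnoid haemorrhage model with tetrandrine, a plant alkaloid, and ABX, a common short form for antibiotics. SAH+Tet carried the model with tetrandrine, SAH the model alone, and Sham was the sham-operated control. The comparisons therefore asked how the community differed with haemorrhage, with tetrandrine after haemorrhage, and with antibiotics on top of tetrandrine. The sources used here do not give the rats' strain, age or sex, the antibiotics, the doses or the times, nor whether each library came from its own animal. The p-values thus measure no more than the spread between these libraries.

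Gut Desulfovibrionaceae live on the end products of other bacteria: they oxidise hydrogen, lactate or formate and reduce sulfur compounds that are freed from mucins, bile acids and food. Desulfovibrio reduces sulfate. Bilophila takes sulfite from taurine, an amino sulfonic acid that is split off conjugated bile acids, and Lawsonia intracellularis is an intracellular pathogen of the intestinal epithelium in pigs and other animals.

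All 63 ASVs belonged to 1 family, Desulfovibrionaceae. Most of them, 44 ASVs with 16479 reads (80.0% of the Desulfobacterota reads), carried no genus name. Desulfovibrio held 16 ASVs and 3587 reads (17.4%), Bilophila 2 ASVs and 508 reads (2.47%), and Lawsonia 1 ASV and 12 reads (0.0583%). Of the 63 ASVs, 35 had a species label that begins with "uncultured", 27 had none, and only the Lawsonia ASV named a cultured species. ASVs are numbered here by their mean share within their genus, and those without a genus are called Desulfovibrionaceae ASV 1, 2 and so on.

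Library totals bear on each value. The SAH+Tet+ABX libraries held 211450, 234185 and 244856 reads, the SAH+Tet libraries 458010, 516810 and 227299, the SAH libraries 248285, 531426 and 448795, and the Sham libraries 495885, 498430 and 519889. A lower depth class of 5 libraries, all 3 of SAH+Tet+ABX with SAH+Tet 3 and SAH 1, thus lay under 300000 reads. With 0 reads a taxon could still hold 3 reads of the library, which was 0.000565% to 0.00142%. This limit covers counting error only, since PCR copies are not independent molecules. SAH 1 and SAH+Tet 3 also held fewer ASVs of all phyla (1171 and 1328) than the other libraries without antibiotics (1985 to 2557). Values without these 2 libraries, an alternative chosen after seeing the data, stand beside the phylum's share and beside the counts of members that they limit.

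The phylum as a whole was nearly absent from SAH+Tet+ABX and took a similar share of the reads in the other groups. Its share was 0, 0 and 0.000817% in SAH+Tet+ABX, where the only reads were 2 in replicate 3. It was 0.729%, 0.424% and 0.768% in SAH+Tet, 0.470%, 0.290% and 0.565% in SAH, and 0.492%, 0.507% and 0.595% in Sham. Every SAH+Tet+ABX library thus lay below every other library, and the groups without antibiotics overlapped each other.

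The means were 0.640% ± 0.188 in SAH+Tet, 0.442% ± 0.140 in SAH and 0.532% ± 0.0556 in Sham (SD, n = 3 each). The difference of means was -0.0901 percentage points for SAH against Sham, 0.199 for SAH+Tet against SAH and 0.109 for SAH+Tet against Sham. These differences are descriptions of a sum over the members and were given no test. Leaving out single libraries moved them to between -0.152 and -0.0143, 0.123 and 0.307, and 0.0448 and 0.217 percentage points, in the same order. Within the 7 libraries of the higher depth class they were -0.104, 0.149 and 0.0448. All values are relative to the library total, so fewer cells of the phylum and more cells of other bacteria cannot be told apart.

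**Figure D1:**
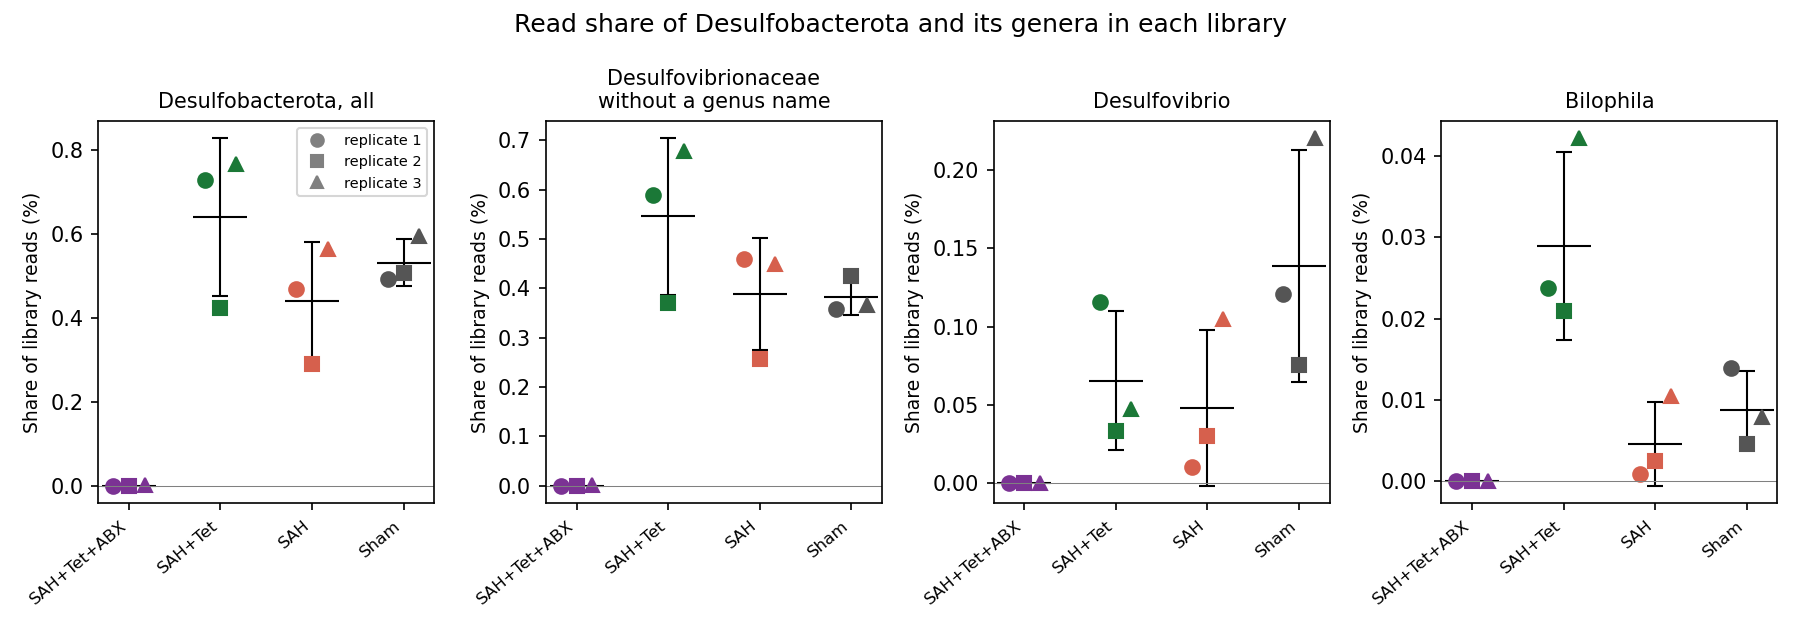
Share of library reads (%, vertical axes) of all Desulfobacterota, of Desulfovibrionaceae without a genus name, of Desulfovibrio and of Bilophila in the SAH+Tet+ABX, SAH+Tet, SAH and Sham libraries. Points are single libraries, with a symbol for each replicate number, and bars give the mean and SD of 3 libraries. SAH+Tet+ABX sits at or near 0 in every panel, and only for Bilophila do all 3 SAH+Tet libraries, 0.0209% to 0.0422%, lie above all SAH and Sham libraries.

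Desulfovibrio, the sulfate-reducing genus, averaged less in SAH+Tet and SAH than in Sham, and no such difference passed the test. It had 0 reads in all 3 SAH+Tet+ABX libraries. Its share was 0.116%, 0.0331% and 0.0475% in SAH+Tet, 0.0101%, 0.0299% and 0.105% in SAH, and 0.121%, 0.0754% and 0.220% in Sham. SAH+Tet 1 and SAH 3 reached the range of Sham and SAH 1 was lowest, so the groups without antibiotics overlapped in each comparison. The log2 fold change was -1.31 ± 0.86 for SAH against Sham (edgeR, adjusted p = 0.370), 0.26 ± 0.84 for SAH+Tet against SAH (edgeR, adjusted p = 0.895) and -1.05 ± 0.85 for SAH+Tet against Sham (edgeR, adjusted p = 0.556). The error beside each log2 value is its size divided by the square root of the test's F statistic, not a fitted standard error. The value for SAH+Tet against SAH turned to -0.42 without SAH+Tet 1, to -0.19 without SAH 1 and to -0.24 within the higher depth class, so its direction depended on the libraries in the fit.

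Bilophila, the genus that uses taurine, was the 1 genus of the phylum for which SAH+Tet stood apart from both SAH and Sham. It had 0 reads in SAH+Tet+ABX and 109, 108 and 96 reads in SAH+Tet, against 2, 13 and 47 in SAH and 69, 23 and 41 in Sham. As shares these were 0.0238%, 0.0209% and 0.0422% in SAH+Tet, against 0.000806%, 0.00245% and 0.0105% in SAH and 0.0139%, 0.00461% and 0.00789% in Sham. The lowest SAH+Tet library thus lay above the highest of SAH and of Sham, while SAH and Sham overlapped. Of the 189 genus-level features tested, 12.7% lay above SAH without overlap in SAH+Tet, and 10.6% above Sham.

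The difference in Bilophila did not pass the adjusted threshold of 0.05. Its log2 fold change was 2.45 ± 0.87 for SAH+Tet against SAH (edgeR, raw p of 0.0232, adjusted p = 0.205), and a raw p under 0.05 was one that 5.29% of the genera tested reached in the same direction. It was 1.66 ± 0.84 for SAH+Tet against Sham (edgeR, raw p of 0.0856, adjusted p = 0.352) and -0.79 ± 0.83 for SAH against Sham (edgeR, adjusted p = 0.582). DESeq2 gave 2.67 for SAH+Tet against SAH with an adjusted p of 0.0172, and the adjusted p of the other settings was between 0.0883 and 0.460. In the 7 deeper libraries alone it was 1.47 (edgeR, adjusted p = 0.370). Both SAH+Tet comparisons use the same SAH+Tet libraries and are not independent of each other.

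Desulfovibrionaceae without a genus name made up 80.8%, 87.3% and 88.3% of the Desulfobacterota reads in SAH+Tet, 97.7%, 88.8% and 79.6% in SAH, and 72.6%, 83.7% and 61.6% in Sham. Their share of the library was 0.589%, 0.370% and 0.678% in SAH+Tet, 0.459%, 0.258% and 0.450% in SAH, and 0.357%, 0.425% and 0.367% in Sham. The groups overlapped in each comparison. The log2 fold change was 0.36 ± 0.40 for SAH against Sham (edgeR, adjusted p = 0.598), 0.16 ± 0.40 for SAH+Tet against SAH (edgeR, adjusted p = 0.871) and 0.51 ± 0.40 for SAH+Tet against Sham (edgeR, adjusted p = 0.539). The mean shares were 0.546% in SAH+Tet, 0.389% in SAH and 0.383% in Sham. The log2 values use edgeR's TMM scaling and the shares the library total, so they need not match in size. For SAH against Sham the log2 fold change was -0.51 with limma on centred log-ratios, a setting that changes the tool and the scaling together.

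Lawsonia was read only in Sham 2, with 12 reads or 0.00241% of that library. It did not reach the filter of 10 reads in 3 libraries and was not tested.

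Across all genera, edgeR called 0 of 189 (0%) at an adjusted p under 0.05 in each of the 3 comparisons without antibiotics. Raw p-values under 0.05 were found for 55 genera (29.1%) in SAH against Sham, 37 (19.6%) in SAH+Tet against SAH and 35 (18.5%) in SAH+Tet against Sham. DESeq2 called 49, 30 and 33, and limma on centred log-ratios 9, 1 and 0, in the same order. Among the 3 Desulfobacterota genera tested, the only call by either of these tools was that of Bilophila by DESeq2.

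The most abundant variant of the phylum was Desulfovibrionaceae ASV 1. This variant, labelled as an uncultured bacterium, held 36.6% of all Desulfobacterota reads. Its share of the Desulfobacterota reads was 45.3%, 50.9% and 78.1% in SAH+Tet, 92.1%, 61.1% and 26.6% in SAH, and 4.59%, 18.6% and 8.85% in Sham. In all 6 SAH+Tet and SAH libraries it took more of the phylum than in any Sham library.

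As a share of the library, Desulfovibrionaceae ASV 1 stood at 0.330%, 0.216% and 0.600% in SAH+Tet, 0.433%, 0.177% and 0.150% in SAH, and 0.0226%, 0.0941% and 0.0527% in Sham. Both groups with haemorrhage lay above Sham without overlap, and overlapped each other. Among all 2283 ASVs tested, 7.01% were above Sham without overlap in SAH and 6.35% in SAH+Tet. Without SAH 1 and SAH+Tet 3 these shares were 17% and 16.7%. The log2 fold change was 2.12 ± 0.94 for SAH against Sham (edgeR, raw p of 0.0516, adjusted p = 0.210), 2.62 ± 0.96 for SAH+Tet against Sham (edgeR, raw p of 0.0238, adjusted p = 0.195) and 0.50 ± 0.91 for SAH+Tet against SAH (edgeR, adjusted p = 0.907). None of these passed the adjusted threshold, and 7.71% of all ASVs tested reached a raw p under 0.05 with a higher value in SAH+Tet than in Sham. For SAH+Tet against Sham the log2 value was between 2.18 and 3.27 when single libraries were left out, and 2.34 within the higher depth class (edgeR, adjusted p = 0.204).

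With Desulfovibrionaceae ASV 1 set aside, the remaining Desulfobacterota took 0.399%, 0.208% and 0.169% of the library in SAH+Tet, 0.0371%, 0.113% and 0.415% in SAH, and 0.470%, 0.413% and 0.543% in Sham. SAH+Tet lay below Sham without overlap, and SAH 3 alone among the SAH libraries reached Sham's range. The other unnamed Desulfovibrionaceae made up 35.5%, 36.3% and 10.3% of the Desulfobacterota reads in SAH+Tet, 5.57%, 27.7% and 53.0% in SAH, and 68.0%, 65.2% and 52.8% in Sham. ASV 1 thus made up most of the phylum's reads in 4 of the 6 SAH+Tet and SAH libraries, and other variants did in all 3 Sham libraries.

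**Figure D2:**
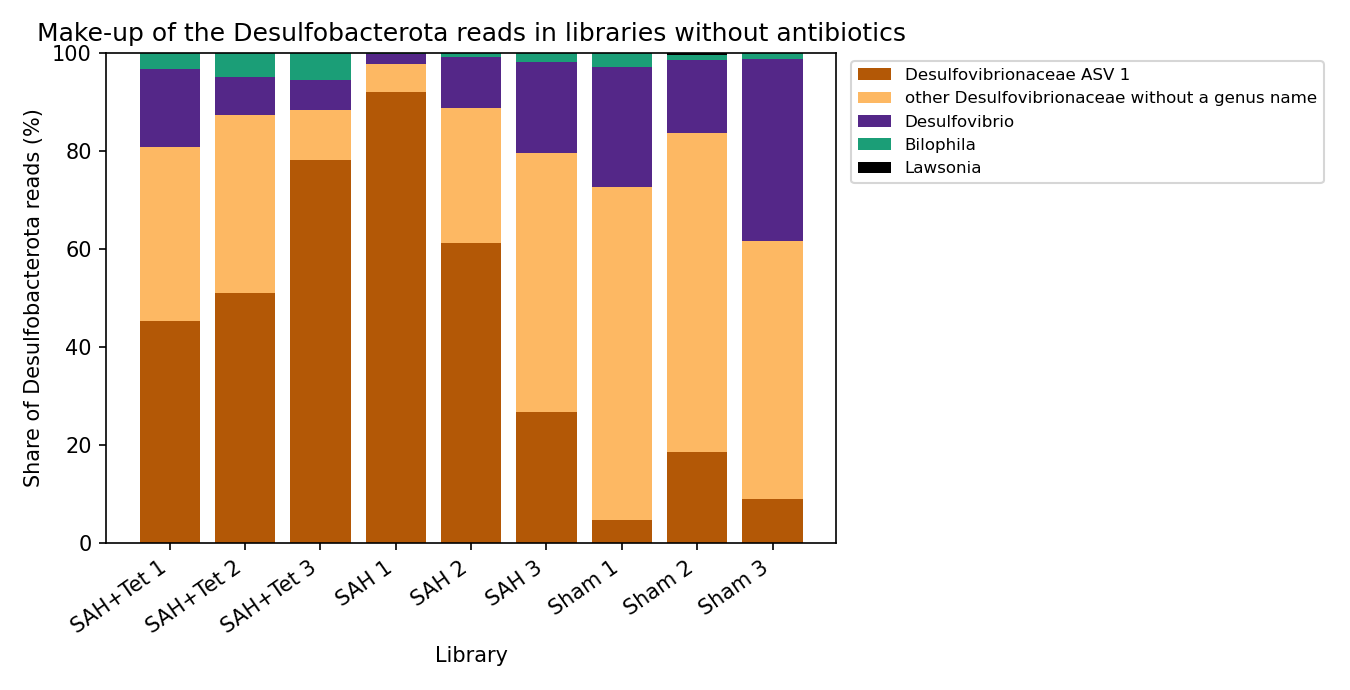
Make-up of the Desulfobacterota reads (%, vertical axis, stacked from 0 to 100) in each library of SAH+Tet, SAH and Sham. The bottom segment, Desulfovibrionaceae ASV 1, spans 26.6% to 92.1% in SAH+Tet and SAH, and 4.59% to 18.6% in Sham.

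A group of unnamed variants was read evenly in Sham and not at all, or in 1 library, after haemorrhage. Desulfovibrionaceae ASV 6 had 0 reads in all SAH+Tet and SAH libraries, against 0.0474%, 0.0524% and 0.0373% of the reads in Sham. Desulfovibrionaceae ASV 14 had 0 in the same 6 libraries, against 0.0101%, 0.0128% and 0.0102% in Sham. Desulfovibrionaceae ASV 22 had 0 in them too, against 0.00444%, 0.00421% and 0.00462% in Sham. These 3 were the only members read in every Sham library and in no library of another group.

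Against 3 reads per library, ASV 6 was at least 56.1-fold, ASV 14 at least 13.6-fold and ASV 22 at least 5.43-fold lower in SAH than in Sham. In SAH+Tet the bounds against Sham were at least 53.6-fold, 13.0-fold and 5.19-fold. The 3 variants passed the filter on low counts through their Sham reads alone and are set out here for that pattern, so these values are a description with no test, and none passed edgeR's adjusted threshold in the fit of 9 libraries. A raw p under 0.05 with a lower value was reached by 15.5% of all ASVs tested in SAH against Sham and by 11.4% in SAH+Tet against Sham. An ASV with at least 10 reads in every Sham library and 0 in every SAH library made up 10.9% of those tested, and 8.41% met the same rule for SAH+Tet.

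Desulfovibrionaceae ASV 8 was close to this pattern. It had 0 reads in all SAH+Tet libraries, 0, 0 and 0.00668% in SAH, and 0.0337%, 0.0391% and 0.0252% in Sham. SAH 3 was the only library with haemorrhage that held it. It was at least 38.4-fold lower in SAH+Tet than in Sham, and it too passed the filter through Sham. Its comparison of SAH+Tet with SAH gave a raw p of 0.0462 (edgeR, adjusted p = 0.237), which 8.63% of all ASVs tested reached with a lower value. That difference rested on the reads of SAH 3, and it became a log2 fold change of 0 without that library.

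Other variants were lower but not lost. Desulfovibrionaceae ASV 5 had 0.00677%, 0.00658% and 0 in SAH+Tet, 0, 0 and 0.00490% in SAH, and 0.0409%, 0.0520% and 0.0352% in Sham. Desulfovibrionaceae ASV 11 had 0.00240%, 0.00213% and 0 in SAH+Tet, 0.00564%, 0.00282% and 0.00379% in SAH, and 0.0135%, 0.0118% and 0.0156% in Sham. Desulfovibrionaceae ASV 7 had 0.0114%, 0.00677% and 0 in SAH+Tet, 0, 0.00263% and 0.0102% in SAH, and 0.0341%, 0.0275% and 0.0237% in Sham. All 3 lay below Sham without overlap in both groups, and none had a raw p under 0.05 (edgeR, adjusted p between 0.294 and 0.815).

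In SAH against Sham, the members below Sham without overlap were Desulfovibrionaceae ASVs 3, 5, 6, 7, 8, 11, 14, 16 and 22, which is 9 of the 24 members tested, against 23.7% of all ASVs tested. In SAH+Tet against Sham they were Desulfovibrio ASV 1 and Desulfovibrionaceae ASVs 3, 5, 6, 7, 8, 9, 11, 14 and 22, 10 of 24, against 17.8%. Without SAH 1 the members below Sham again numbered 9 (25.3% of all ASVs), and without SAH+Tet 3 they again numbered 10 (20.4%). An ASV that is read in Sham alone can pass the filter through Sham alone, so these counts are a description of the members tested and support nothing about the phylum.

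The most abundant variant with a genus name, Desulfovibrio ASV 1, was also highest in Sham. It stood at 0.0295%, 0.0209% and 0 in SAH+Tet, 0, 0.0282% and 0.0878% in SAH, and 0.108%, 0.0722% and 0.202% in Sham. SAH+Tet lay below Sham without overlap, and SAH 3 overlapped Sham. The log2 fold change was -2.69 ± 2.25 for SAH+Tet against Sham (edgeR, adjusted p = 0.713) and -1.38 ± 2.15 for SAH against Sham (edgeR, adjusted p = 0.807). In SAH+Tet and in SAH 1 library was at 0, and neither difference passed the test.

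**Figure D3:**
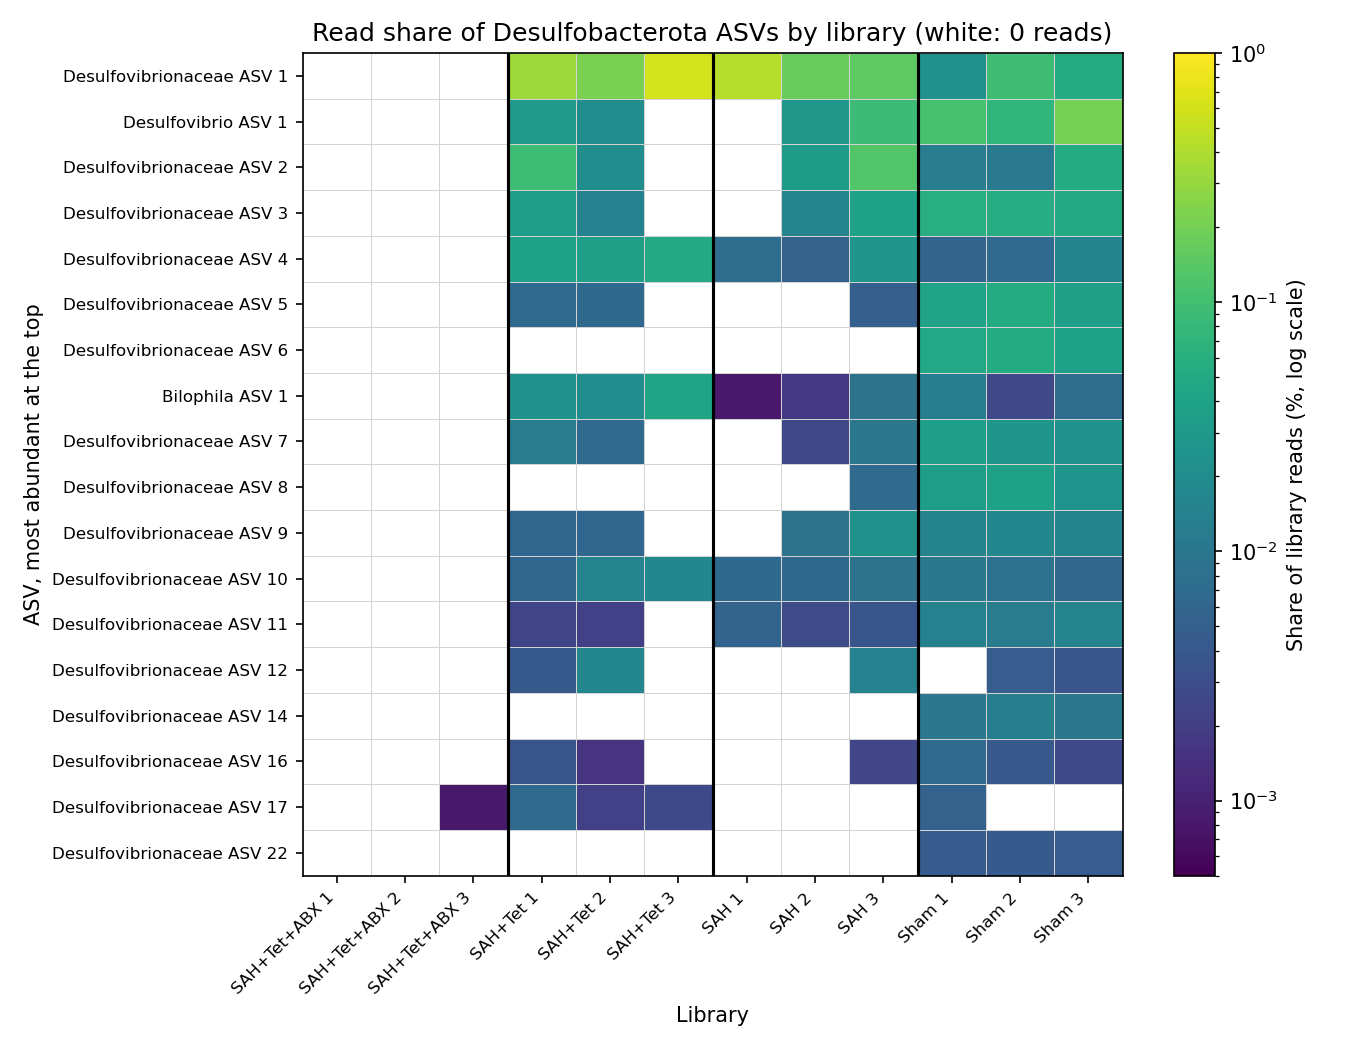
Share of library reads (%, colour on a log scale) of the 18 Desulfobacterota ASVs picked for single description, most abundant at the top. Columns are the libraries of SAH+Tet+ABX, SAH+Tet, SAH and Sham from left to right. White cells hold 0 reads. The SAH+Tet+ABX columns are white but for 1 cell, SAH+Tet 3 and SAH 1 have more white cells than the other libraries of their groups, and Desulfovibrionaceae ASVs 6, 14 and 22 are coloured in Sham only.

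A few of the variants tested stood higher in SAH+Tet. Desulfovibrionaceae ASV 4 took 0.0402%, 0.0354% and 0.0484% of the reads in SAH+Tet, 0.00725%, 0.00546% and 0.0274% in SAH, and 0.00565%, 0.00662% and 0.0150% in Sham. SAH+Tet lay above both other groups without overlap. The log2 fold change was 1.41 ± 1.17 against SAH (edgeR, adjusted p = 0.618) and 2.18 ± 1.19 against Sham (edgeR, adjusted p = 0.381).

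Bilophila ASV 1, which carried nearly all reads of its genus, repeated the pattern of the genus. It had 0.0238%, 0.0201% and 0.0422% in SAH+Tet, 0.000806%, 0.00169% and 0.00891% in SAH, and 0.0125%, 0.00261% and 0.00712% in Sham. Its log2 fold change was 2.56 ± 1.38 against SAH (edgeR, adjusted p = 0.307) and 1.89 ± 1.34 against Sham (edgeR, adjusted p = 0.606). Bilophila ASV 2 had at most 10 reads in a library.

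Desulfovibrionaceae ASV 17 had 31, 11 and 6 reads in SAH+Tet, against 0 in all SAH libraries, and 26, 0 and 0 in Sham. The raw p for SAH+Tet against SAH was 0.0379 (edgeR, adjusted p = 0.233), and 12.1% of all ASVs tested reached a raw p under 0.05 with a higher value. ASV 17 passed the filter through its reads in SAH+Tet and Sham, with none in SAH, so its values against SAH are a description and support nothing. Together with ASV 4 and Bilophila ASV 1 it made 3 of the 24 members tested that lay above SAH without overlap, where 9.81% of all ASVs tested did. In the other direction Desulfovibrionaceae ASV 11 alone lay below SAH, where 6.22% of all ASVs tested did. ASV 4, Bilophila ASV 1 and Desulfovibrionaceae ASV 1 were the members above Sham without overlap in SAH+Tet, 3 of 24, against 6.35% of all ASVs tested. Without SAH+Tet 3 the members above Sham again numbered 3, against 16.7%.

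Some variants showed no order among the groups. Desulfovibrionaceae ASV 10 was read in all 9 libraries without antibiotics, at 0.00611%, 0.0155% and 0.0172% in SAH+Tet, 0.00644%, 0.00640% and 0.00891% in SAH, and 0.0107%, 0.00863% and 0.00616% in Sham. It was 1 of 4 members read in all 9, with Desulfovibrionaceae ASVs 1 and 4 and Bilophila ASV 1. Desulfovibrionaceae ASV 2 ranged from 0 to 0.0917% in SAH+Tet, from 0 to 0.127% in SAH and from 0.0112% to 0.0521% in Sham. Its highest values were in SAH 3 and SAH+Tet 1, and it had 0 reads in SAH 1 and SAH+Tet 3.

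Desulfovibrionaceae ASVs 3, 9, 12 and 16 were likewise at 0 in SAH 1 and SAH+Tet 3. ASV 3 had 0.0332% and 0.0139% in the other SAH+Tet libraries, 0.0160% and 0.0399% in the other SAH libraries, and 0.0583%, 0.0574% and 0.0508% in Sham. ASV 9 spanned 0.00611% to 0.0225% in the libraries of SAH+Tet and SAH that held it, and 0.0148% to 0.0169% in Sham. ASVs 12 and 16 stayed at or below 0.0166% in every library. The 18 ASVs picked for single description held 91.1% of the Desulfobacterota reads. The other 45, a few of which are named elsewhere in the text, had at most 0.0417% of any library. That value was of Desulfovibrio ASV 3 in SAH+Tet 1.

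Across ASVs, edgeR called 0 of 2283 (0%) in each of the 3 comparisons without antibiotics, and 24 of the 63 members, with 93.9% of the phylum's reads, passed the filter. Raw p-values under 0.05 were found for 553 ASVs (24.2%) in SAH against Sham, 474 (20.8%) in SAH+Tet against SAH and 437 (19.1%) in SAH+Tet against Sham. Among the members they were found for 3, 2 and 5, in the same order. Those lower than in Sham were ASVs 6, 14 and 22, with ASV 8 in SAH+Tet, which passed the filter through Sham and whose calls by any tool support nothing. DESeq2 called 404, 301 and 276 ASVs, and limma on centred log-ratios 270, 112 and 218. Of the members, DESeq2 called Desulfovibrionaceae ASVs 6 and 14 lower in both comparisons with Sham, and ASV 8 lower in SAH+Tet. It also called Desulfovibrionaceae ASV 13 higher in both, a variant named after its values were seen. ASV 13 had 125, 0 and 0 reads in SAH+Tet, 0, 15 and 28 in SAH and 0 in Sham. It passed the filter through its reads in SAH+Tet and SAH, with none in Sham, so its calls support nothing. The call in SAH+Tet rested on 1 library, and edgeR gave an adjusted p of 0.250 for SAH and 0.269 for SAH+Tet against Sham. Limma called ASVs 6 and 14 lower in both comparisons and ASV 8 lower in SAH+Tet.

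Most members were read in few libraries. Of the 63 ASVs, 25 (39.7%) were read in 1 library only, as were 47.9% of all ASVs. SAH+Tet held 36, SAH 30 and Sham 40 members in at least 1 library, where ASVs of all phyla numbered 3909, 3190 and 3763. Of the members, 15 occurred in all 3 of these groups. SAH shared 20 with Sham, 66.7% of its own and 50.0% of Sham's. SAH+Tet shared 17 with SAH, 47.2% of its own and 56.7% of those of SAH, and 21 with Sham, 58.3% of its own and 52.5% of Sham's.

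Reads in 1 group only were found for 13 members in SAH+Tet, 8 in SAH and 14 in Sham, of which 9, 7 and 9 were read in 1 library. For these counts and the shared ones above, the matching counts over all ASVs were not taken, so they describe the members only. SAH 1 and SAH+Tet 3, which held few ASVs of all phyla, limit them too. Besides the Sham variants ASV 6, 14 and 22, 3 more were read in every library of 1 group and nowhere else. They were named after their values were seen. Desulfovibrio ASV 3 had 191, 41 and 7 reads in SAH+Tet, and Desulfovibrionaceae ASV 21 had 28, 25 and 6. Desulfovibrio ASV 5 had 14, 9 and 34 reads in SAH. None of the 3 was tested, since each missed the filter of 10 reads in 3 libraries.

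The number of members per library was 0, 0 and 1 in SAH+Tet+ABX, 27, 25 and 12 in SAH+Tet, 9, 14 and 27 in SAH, and 30, 28 and 27 in Sham. At an equal depth of 211450 reads the expected numbers were 27.0, 24.4 and 12.0 in SAH+Tet, 8.96, 13.8 and 26.6 in SAH, and 30.0, 27.7 and 26.8 in Sham. Sham thus varied little, while SAH spanned 9 to 27, a range that equal depth did not narrow. SAH 2 had few members although it was the deepest library and held 2259 ASVs of all phyla.

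Of the 14 members read in both SAH 2 and SAH 3, 8 (57.1%) were at 0 in SAH 1, as were 58.0% of all ASVs chosen in the same way. For 7 of these 8, more than 3 reads would be expected in SAH 1 at the lower share of the other libraries. Of the 18 members read in both SAH+Tet 1 and SAH+Tet 2, 11 (61.1%) were at 0 in SAH+Tet 3, as were 56.2% of all ASVs, and for 10 of the 11 more than 3 reads would be expected. The missing members of these 2 libraries were therefore near the share missing among ASVs in general.

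**Figure D4:**
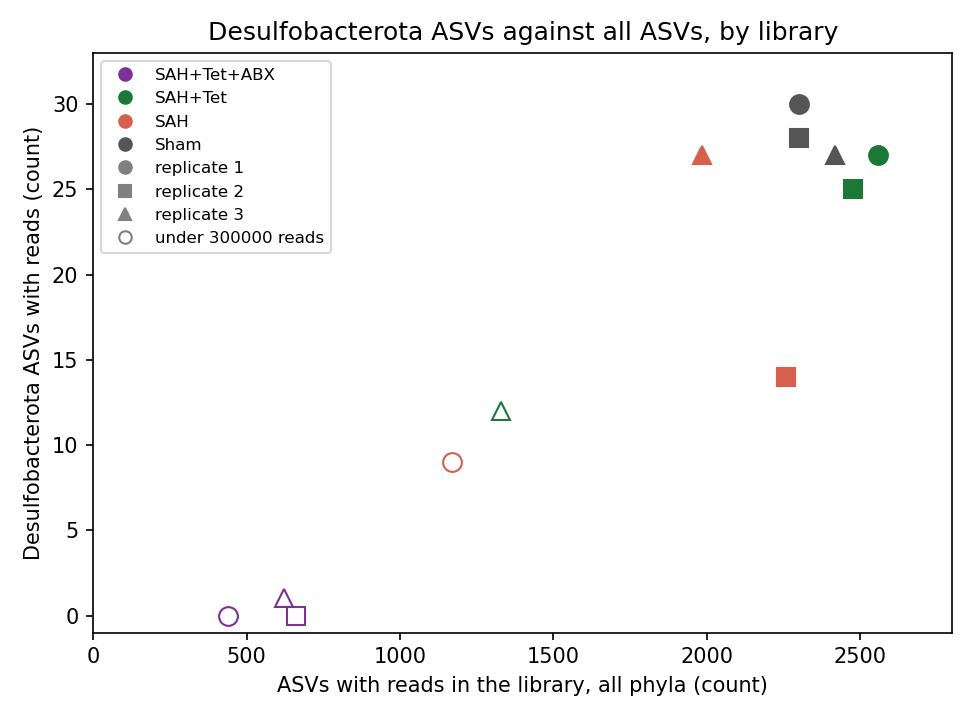
Number of Desulfobacterota ASVs (vertical axis, count) against the number of ASVs of all phyla (horizontal axis, count) in each library of SAH+Tet+ABX, SAH+Tet, SAH and Sham. Open symbols mark libraries under 300000 reads. The open symbols of SAH+Tet 3 and SAH 1 lie at 12 and 9 members, and SAH 2 lies at 14 members with 2259 ASVs in all.

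In all 3 libraries of a group, 7 members were read in SAH+Tet and 6 in SAH, against 18 in Sham. ASVs of all phyla had the same order, with 655 in SAH+Tet, 557 in SAH and 1223 in Sham. SAH+Tet 3, with 12 members, and SAH 1, with 9, cap these counts: without them 18 members were read in both SAH+Tet libraries and 14 in both SAH libraries. ASVs of all phyla then numbered 1496 and 1326. Being over 2 libraries, these counts meet an easier rule than those of Sham over 3, and the order for all phyla is not kept. Of the 18 in Sham, SAH+Tet had 4 in all 3 of its libraries, 8 in 2, 1 in 1 and 5 in none. SAH had 5 in all 3, 6 in 2, 4 in 1 and 3 in none. Without SAH+Tet 3, 12 of the 18 (66.7%) were in both SAH+Tet libraries, as were 58.9% of the 1223 ASVs of all phyla found throughout Sham, and without SAH 1, 11 (61.1%) were in both SAH libraries, as were 53.1%. Among the 1223 ASVs of all phyla read in every Sham library, 34.2% were in all 3 SAH+Tet libraries and 18.5% in none, and 28.6% were in all 3 SAH libraries and 24.3% in none. None of the 18 was read in SAH+Tet+ABX, where 77.4% of the 1223 were missing as well.

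With antibiotics, the phylum all but disappeared from the reads. Over the group, SAH+Tet+ABX held 2 Desulfobacterota reads of 690491, against 7276 of 1202119 in SAH+Tet. The ratio of the pooled shares was 0.000479, with an exact 95% interval of 5.79e-05 to 0.00173 that covers counting error only. The 2 reads belonged to Desulfovibrionaceae ASV 17 in replicate 3.

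Desulfovibrio was at least 50.1-fold lower and Bilophila at least 22.1-fold lower in SAH+Tet+ABX than in SAH+Tet, computed against 3 reads per library. All 3 genera tested fell (edgeR, adjusted p = 0.000695 for the unnamed Desulfovibrionaceae, 0.00174 for Desulfovibrio and 0.00302 for Bilophila). Of 197 genera tested, 73 (37.1%) were called, 55 of them lower and 18 higher, and 32.5% lay below SAH+Tet without overlap. The 3 genera were called lower in every alternative run, while limma on centred log-ratios split its 75 calls over all genera into 33 lower and 42 higher. All SAH+Tet+ABX libraries are of the lower depth class. The 1 SAH+Tet library of that class, SAH+Tet 3, held the phylum at 0.768%, against 0, 0 and 0.000817% in SAH+Tet+ABX.

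At the level of ASVs, 4 members were called lower in SAH+Tet+ABX: Desulfovibrionaceae ASVs 1, 4 and 10 and Bilophila ASV 1, the same 4 that were read in all 9 libraries without antibiotics. Each had at least 10 reads in every SAH+Tet library and 0 in every SAH+Tet+ABX library, as did 15.1% of all ASVs tested. Desulfovibrionaceae ASV 1 was at least 292-fold lower (edgeR, adjusted p = 0.0170). ASV 4 was at least 31.6-fold lower (edgeR, adjusted p = 0.0170), ASV 10 at least 9.87-fold (edgeR, adjusted p = 0.0180) and Bilophila ASV 1 at least 22.0-fold (edgeR, adjusted p = 0.0198). Of 2394 ASVs tested, 247 (10.3%) were called, 233 lower and 14 higher. A raw p under 0.05 was found for 1264 ASVs (52.8%, and 48.6% with a lower value) and for 13 members, all lower, and 19.2% of all ASVs lay below SAH+Tet without overlap. These ASV calls rested on few libraries. Without SAH+Tet+ABX 3, edgeR called 0 ASVs (lowest adjusted p = 0.0508, with a raw p under 0.05 for 792), and without SAH+Tet 3 it called 493 ASVs and 10 members.

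Other genera linked to sulfur use or to the exchange of hydrogen, lactate and mucin with these bacteria were set beside them. Of 8 genera looked for by name as other sulfate or sulfite reducers or their relatives, 1 was found, the Lawsonia described above. Of 10 exchange partners, 9 were found and tested, and Methanobrevibacter, a methanogen that competes for hydrogen, had no ASV. In SAH+Tet+ABX against SAH+Tet, 4 of the 9 were called, 2 lower and 2 higher, against 37.1% of all genera tested. Prevotella held 0, 0.00214% and 0 of the reads in SAH+Tet+ABX, against 2.08%, 1.55% and 0.0462% in SAH+Tet (edgeR, adjusted p = 0.00867). Parabacteroides held 0, 0 and 0.000817%, against 0.0836%, 0.0813% and 0.0365% (edgeR, adjusted p = 0.00225).

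Akkermansia, a mucin degrader that frees sulfate, held 0.244%, 1.46% and 1.83% in SAH+Tet+ABX, against 0.0478%, 0.00503% and 0 in SAH+Tet (edgeR, adjusted p = 0.0462). Blautia, an acetogen that also consumes hydrogen, held 0.507%, 1.24% and 4.89%, against 0.138%, 0.0513% and 0.0832% (edgeR, adjusted p = 0.0194). Akkermansia and Blautia thus rose with antibiotics where the Desulfobacterota fell, while Prevotella and Parabacteroides fell with them. In the other groups, Akkermansia held 0, 0.0442% and 0.0334% in SAH and 1.09%, 5.44% and 1.80% in Sham. Blautia held 5.76%, 2.77% and 0.476% in SAH and 0.0551%, 0.419% and 0.0540% in Sham. A link between these genera and the Desulfobacterota was not tested. In the comparisons without antibiotics 0 of the 9 passed the adjusted threshold.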

How the data were processed

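In all, 12 faecal 16S rRNA gene libraries of rats were analysed from the read counts per ASV that the authors deposited, unscaled and each with a lineage. fastp and cutadapt are named, without versions, per the submitters' processing notes. The sources used here do not give the taxonomy database, the primers, the 16S region or the denoising and chimera steps, which together set how many ASVs are reported and named. The 12 columns of the series table equalled the tables of the single libraries. Of 7240 ASVs, 2 assigned to Eukaryota were left out. Counts were summed to 389 genus-level features, 304 of them with a genus name. Groups came from each sample's own treatment label. Another treatment label, on a differentiation of cells, is shared by all samples, does not match rat faeces and was not used.

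Shares are percent of the library's reads. Tests used the quasi-likelihood method of edgeR 4.0.16 (R 4.3.3) with TMM scaling and group as the only term, on features with at least 10 reads in at least 3 libraries. One fit of the 9 libraries without antibiotics gave the first 3 comparisons and a fit of all 12 the comparison with antibiotics. P-values were adjusted by Benjamini-Hochberg over all features of a comparison, and the threshold was 0.05. The procedure was run on simulated counts with planted changes. These were larger than the genus-level changes of the phylum without antibiotics, so the run does not show that changes of that size can be found. DESeq2 1.42.0, limma 3.58.1 on centred log-ratios (0.5 added), library size scaling, no filter, the 6 compared libraries alone, a replicate block, a depth class block and single libraries left out were the alternatives. Intervals are exact (Clopper-Pearson, 95%). Replicates of a group differed by far more than counting error (lowest chi-square per degree of freedom 79.8).

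The ASVs picked for single description were the 12 with the highest mean share and those with a raw edgeR p under 0.05 in any comparison. Up to 3 per comparison with at least 10 reads in every library of 1 group and 0 in the other were added. The members and the lists of other genera were chosen with earlier results of these data known.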

Additional observations from a re-analysis of the deposited data

How the results depend on the processing

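Counts of called features depended on the tool and on the libraries in the fit, and the cause was not tested. Genera called in SAH against Sham numbered 0 with edgeR, 49 with DESeq2, 9 with limma on centred log-ratios, 30 with a depth class block and 26 within the higher depth class, a setting chosen after seeing the data. For SAH+Tet against SAH they numbered 0, and 30, 1 and 1 with DESeq2, limma and the higher class. In SAH+Tet against Sham they numbered 0, and 33, 26 and 25 with DESeq2, the depth class block and the higher class. With single libraries left out these counts were 0 to 1. In SAH+Tet+ABX against SAH+Tet the 73 genera became 43 with the 6 compared libraries alone, 44 with a replicate block, 46 with the depth class block, and 45 to 81 with single libraries left out. ASVs called in SAH against Sham numbered 0, and 404 with DESeq2, 270 with limma, 160 without a filter and 308 with 6 libraries. For SAH+Tet against SAH the ASVs numbered 0, and 301, 112 and 90 with DESeq2, limma and no filter. For SAH+Tet against Sham the ASVs numbered 0, and 276, 218, 65 and 208 in the order given for SAH. In SAH+Tet+ABX against SAH+Tet the 247 became 159 with library size scaling, 886 with DESeq2, 426 with 6 libraries, 99 with a replicate block, 145 with the depth class block, and 0 to 493 with single libraries left out. Desulfobacterota ASVs called in SAH against Sham numbered 0 of 24, and 3 of 24 with DESeq2, 2 of 24 with limma, 1 of 63 without a filter and 3 of 20 with 6 libraries. Over all ASVs the calls were 0, 404 and 270 of 2283, 160 of 6720 and 308 of 1703. The members called in SAH+Tet against Sham numbered 0, and 4, 3 and 4 with DESeq2, limma and 6 libraries, where 276, 218 and 208 of all ASVs were called. In both comparisons the members called by DESeq2 and limma were among ASVs 6, 8, 13 and 14. These passed the filter only through the groups where they are high, so the calls support nothing. In SAH+Tet+ABX against SAH+Tet the 4 members called became 11 with DESeq2, 2 without a filter, 1 with a replicate block, and 0 to 10 with single libraries left out. Desulfobacterota genera called in SAH+Tet against SAH numbered 0 of 3, and 1 of 3 with DESeq2, which called 30 of 189 genera in all.

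Directions turned in a few cases, none of them a call. Unnamed Desulfovibrionaceae in SAH against Sham had a log2 fold change of -0.51 with limma. In SAH+Tet against SAH, Desulfovibrio had -0.24 within the higher depth class and -0.42 to 1.30 with single libraries left out, and unnamed Desulfovibrionaceae -0.044 to 0.41. With the depth class block in SAH+Tet+ABX against SAH+Tet, Desulfovibrio ASV 1 had 0.63 and Desulfovibrionaceae ASVs 2, 3 and 9 had 0.29, 0.16 and 0.70. These 4 had 0 reads in SAH+Tet 3, the only SAH+Tet library of the lower class. The replicate numbers are not said to pair the libraries. Deviations of same-numbered libraries correlated at -0.592 to 0.556 over 18 pairs, 5 of them over 0.1. Those of differently numbered libraries correlated at -0.660 to 0.726 over 36 pairs, 7 of them over 0.1. With 3 libraries per group these values cannot exclude a pairing. The median log2 fold change of all genera in SAH against Sham was 0.22 with TMM and -0.032 with library size scaling. The difference in phylum share kept its direction under every alternative run. Depth limits the rarest members: with 0 reads, 3 reads of the shallowest library, 0.00142%, remain possible.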
